A study of Mus musculus with 4 samples.

Results

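The Fc gamma receptors are the 4 mouse receptors for the constant part of IgG antibodies, encoded by Fcgr1, Fcgr2b, Fcgr3 and Fcgr4. They were chosen by gene symbol, and all 4 had an entry among the 22026 genes of the tables. RNA was measured in 4 libraries of bone marrow derived macrophages from C57BL/6 mice, 2 from mice labelled wildtype control (WT) and 2 from mice of the genotype Rbpj f/f;LysM cre (RBP-J KO). Marrow from mice aged 8 weeks had been cultured for 3 days in CMG14-12 supernatant, equivalent to 20 ng/ml of M-CSF, the growth factor of macrophages. All groups share this culture. LysM cre deletes floxed DNA where the lysozyme gene Lyz2 is active, that is in macrophages, monocytes and neutrophils, and the labels do not say whether the WT mice carried the Cre or the floxed allele. RBP-J is the nuclear effector of Notch receptors, which binds DNA at their target genes. The study addresses how transcripts differ when macrophages lack it.

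Fc gamma receptors let a macrophage act on particles and complexes coated with IgG. Fcgr1 encodes the high affinity receptor CD64, Fcgr3 the low affinity receptor CD16, and Fcgr4 a receptor of intermediate affinity (CD16-2). These are activating receptors: they assemble with the gamma chain encoded by Fcer1g, whose ITAM motif recruits Src family kinases and Syk and leads to phagocytosis, an oxidative burst and cytokine release. Fcgr2b encodes the inhibitory receptor CD32B, whose ITIM motif recruits the phosphatase SHIP1 and restrains the activating receptors when both are engaged by the same complex. The ratio of activating to inhibitory receptors is therefore a common measure of how readily a macrophage responds to IgG. Interferon gamma is known to induce Fcgr1 and Fcgr4.

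The 250 bases before the start site of each receptor gene are shown because the deleted factor binds DNA. They come from RefSeq promoters of build GRCm38.p6, which had an entry for all 4 genes. Fcgr3 has 2 overlapping windows there, and the one that starts further upstream is shown and described. The deposited files use build mm9, so these positions were used for the sequences only. Capitals mark matches to 5 motifs searched on both strands: the RBP-J core TGGGAA, the longer RBP-J motif CGTGGGAA, the PU.1 core GAGGAA, the interferon gamma activated site TTCNNNGAA, and the interferon response element GAAANNGAA.
Fcgr1, chr3:96293970-96294219, minus strand: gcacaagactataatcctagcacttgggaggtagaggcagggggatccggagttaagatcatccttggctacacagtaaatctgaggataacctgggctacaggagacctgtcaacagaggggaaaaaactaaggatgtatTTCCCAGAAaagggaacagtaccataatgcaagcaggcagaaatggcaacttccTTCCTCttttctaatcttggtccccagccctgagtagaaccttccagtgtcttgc
Fcgr4, chr1:171018676-171018925, plus strand: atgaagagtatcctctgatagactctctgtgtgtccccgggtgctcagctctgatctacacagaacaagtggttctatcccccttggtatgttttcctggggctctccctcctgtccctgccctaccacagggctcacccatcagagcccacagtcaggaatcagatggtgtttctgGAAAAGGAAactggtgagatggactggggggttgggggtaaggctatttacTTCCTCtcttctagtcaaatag
Fcgr3, chr1:171059404-171059653, minus strand: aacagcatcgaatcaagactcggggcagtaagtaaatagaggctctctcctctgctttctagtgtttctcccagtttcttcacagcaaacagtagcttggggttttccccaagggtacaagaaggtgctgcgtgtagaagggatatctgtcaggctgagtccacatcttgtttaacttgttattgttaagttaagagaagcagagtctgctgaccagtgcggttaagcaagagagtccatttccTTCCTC
Fcgr2b, chr1:170976072-170976321, minus strand: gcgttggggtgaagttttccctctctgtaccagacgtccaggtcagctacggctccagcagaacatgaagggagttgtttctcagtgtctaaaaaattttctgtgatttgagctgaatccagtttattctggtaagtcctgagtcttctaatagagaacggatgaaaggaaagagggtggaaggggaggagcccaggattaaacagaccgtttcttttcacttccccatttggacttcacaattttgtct
In the Fcgr1 window, TTCCCAGAA lay 109 to 101 bases before the start site, and it is a match to the interferon gamma activated site that overlaps a reverse match to the RBP-J core (TTCCCA). PU.1, the myeloid master factor, had a core match on the reverse strand (TTCCTC) in the windows of Fcgr1, Fcgr3 and Fcgr4, and none in that of Fcgr2b. The Fcgr4 window also held GAAAAGGAA, a match to the interferon response element, 73 to 65 bases before the start. The longer RBP-J motif matched in none of the 4. Of the 32851 promoter windows of this length in the table, 21.6% held the RBP-J core, 0.636% the longer RBP-J motif, 23.3% the PU.1 core, 7.02% the activated site and 7.13% the response element. The motifs were chosen after the windows had been seen, and the response element was shortened by its last letter once its matches were known, which can only raise the share of windows that hold it. A match is a string of letters and does not show that a factor binds there.

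The authors' deposited values are taken as FPKM, a measure that corrects fragment numbers for the length of the transcript and the size of the library, with a scale that is not stated, so levels are described and folds are compared. Between 12142 and 12707 genes were above 0 in a library, summed FPKM lay between 2125327 and 2389348, and read depth is unknown. Rbpj was at 355 and 573 FPKM in the WT libraries against 51.5 and 77 in RBP-J KO. The replicate numbers divide the libraries. The replicate 1 tables list genes and the replicate 2 tables list transcripts, and Ddx3y, a Y-linked gene, was listed at 0 in both replicate 2 libraries and Xist in both replicate 1 libraries, so the libraries of a group came from mice of different sex. Values are therefore also compared inside each replicate number. No label says that equal numbers share a mouse or a day, so the p-values reflect only how far these libraries lie apart. The 8 macrophage markers, among them Fcgr1 itself, summed to between 12556 and 19091 FPKM. Csf1r, Cd68 and Emr1 were each above 2287 FPKM in every library. In RBP-J KO the sum was at 1.13 of WT in replicate 1 and 0.82 in replicate 2. Of the 8, 2 were higher and 3 lower in both replicate numbers, beside 25.1% and 34.1% of all genes tested. The 2 higher were Mertk and the member Fcgr1 itself, and the 3 lower were Cd68, Cd14 and Lyz2. Among those lower, Cd14 was at 1715 and 1570 FPKM in the WT libraries against 764 and 800 in RBP-J KO. Lyz2, the lysozyme gene on which LysM cre relies, was at 218 and 192 FPKM in the WT libraries against 94.3 and 115 in RBP-J KO. The part of the Cre allele itself in this Lyz2 difference was not tested. Neutrophil markers were also present: the 8 with an entry summed to 6937 FPKM in WT and 8252 in RBP-J KO for replicate 1, and to 268 and 946 for replicate 2.

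Fcgr3 had the highest level of the 4 receptors in every library, and both RBP-J KO libraries lay below both WT libraries. WT replicates 1 and 2 had 2951 and 3208 FPKM, and RBP-J KO replicates 1 and 2 had 2527 and 2722 FPKM. The groups did not overlap, and WT was 1.17-fold higher in replicate 1 and 1.18-fold higher in replicate 2. The means were 3079 ± 182 and 2625 ± 138 FPKM (SD, n = 2). The log2 difference of RBP-J KO minus WT was -0.23 (SE 0.20), and limma across all genes with Benjamini-Hochberg adjustment gave an adjusted p of 0.999. Natural killer cells and mast cells also use Fcgr3. The 6 natural killer markers summed to at most 0.44 FPKM in a library, with 5 listed at 0 in all, and the 7 mast cell and basophil markers to 3.84 and 0 in the WT libraries and 28.7 and 2.01 in RBP-J KO, with 3 listed at 0 in all. In bulk RNA, fewer cells of a type and less RNA per cell cannot be told apart.

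Fcgr2b, the inhibitory receptor, was second in level and differed in the other direction. It was at 1263 and 1451 FPKM in the WT libraries against 1509 and 1658 in RBP-J KO, in the order of the replicate numbers. Both RBP-J KO libraries lay above both WT libraries, by 1.19-fold and 1.14-fold inside the replicate numbers. The log2 difference was 0.22 (SE 0.20, limma adjusted p = 0.999). B cells use Fcgr2b as their Fc gamma receptor. The 7 B cell markers together reached at most 37.2 FPKM in any library, with Ebf1 and Vpreb3 listed at 0 in all 4 and Cd79b at 9.90 and 6.93 FPKM in the WT libraries against 20.7 and 26.0 in RBP-J KO.

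Fcgr4 showed the largest difference of the 4. It was at 211 and 196 FPKM in the WT libraries, close to each other, and at 529 and 305 in the RBP-J KO libraries, which were further apart. This is 2.50-fold in replicate 1 and 1.56-fold in replicate 2, and the groups did not overlap (204 ± 11.03 and 417 ± 159 FPKM, SD, n = 2). The log2 difference was 0.98 (SE 0.31), with an unadjusted p of 0.030 and an adjusted p of 0.999 in limma. Without RBP-J KO replicate 1 the log2 difference was 0.58. Fcgr4 is also a known marker of nonclassical monocytes and is expressed by neutrophils. Of 6 nonclassical monocyte markers, chosen with earlier results of these data known, 5 were higher in RBP-J KO inside both replicate numbers. The share of all genes tested is 25.1%, and Ace was listed at 0 in all libraries. The 5 were not alike: Nr4a1 was only 1.01-fold higher in replicate 1 and 1.58-fold in replicate 2. Itgal in RBP-J KO replicate 2 (145 FPKM) lay below WT replicate 1 (163 FPKM). The 6 markers summed to 549 and 134 FPKM in the WT libraries and 1788 and 1153 in RBP-J KO, 3.26-fold and 8.59-fold higher. Cx3cr1 was at 303 and 30.6 FPKM in the WT libraries against 845 and 746 in RBP-J KO. Neutrophil marker sums were 1.19-fold higher in RBP-J KO in replicate 1 and 3.53-fold higher in replicate 2. Of the 8 markers, 6 were higher and 0 lower in both, beside 25.1% and 34.1% of all genes tested. Dendritic cell markers summed to 5.79 and 1.09 FPKM in the WT libraries and 73.2 and 2.77 in RBP-J KO, with 0 of 6 listed at 0 in all libraries. The part of these cells in the Fcgr4 difference was not tested.

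Fcgr1 was higher in RBP-J KO inside both replicate numbers, but it differed more between the numbers than between the genotypes. In replicate 1 the level was 765 FPKM for WT against 987 for RBP-J KO, and in replicate 2 it was 287 against 391. RBP-J KO was 1.29-fold and 1.36-fold higher, whereas replicate 1 exceeded replicate 2 by 2.66-fold in WT and by 2.53-fold in RBP-J KO. The groups overlapped, since WT replicate 1 lay above RBP-J KO replicate 2. The log2 difference was 0.41 (SE 0.67, limma adjusted p = 0.999), and it turned to -0.26 without RBP-J KO replicate 1 and to -0.30 without WT replicate 2. Leaving out either library makes the replicate numbers unbalanced between the genotypes. With the replicate number as a further term in the model the log2 difference was 0.41 (SE 0.13, limma adjusted p = 0.322). The other receptors differed little between the replicate numbers in WT, where the fold of replicate 1 over replicate 2 was 0.87 for Fcgr2b, 0.92 for Fcgr3 and 1.08 for Fcgr4. In RBP-J KO this fold was 0.91 for Fcgr2b and 0.93 for Fcgr3, but 1.74 for Fcgr4.

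**Figure D1:**
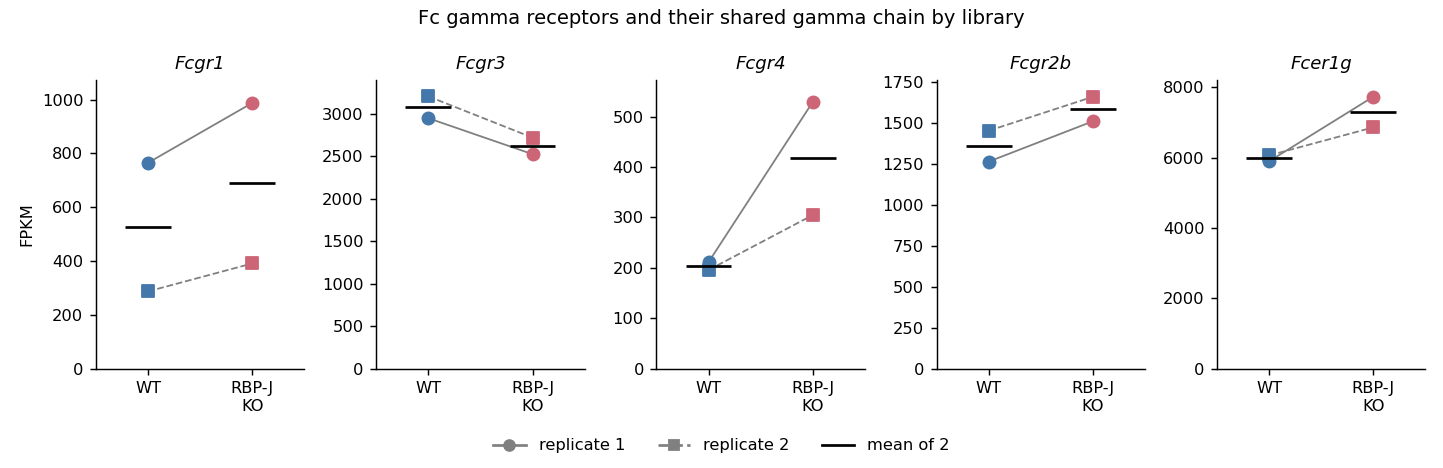
FPKM (vertical axis, starting at 0) of the 4 Fc gamma receptor genes and Fcer1g in each library, with WT in blue and RBP-J KO in red; lines join libraries of equal replicate number and black bars are means of 2 libraries. Fcgr3 is lower in both RBP-J KO libraries, Fcgr2b and Fcgr4 are higher in both, and Fcgr1 is separated mainly by replicate number.

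Counted together, 3 of the 4 receptors (Fcgr1, Fcgr2b and Fcgr4) were higher in RBP-J KO inside both replicate numbers, against 25.1% of the 11851 genes tested. Fcgr3 alone was lower in both, against 34.1%. The RBP-J KO libraries lay wholly above the WT libraries for Fcgr2b and Fcgr4 (background 11.7%) and wholly below for Fcgr3 (background 18.2%). Fcgr4 was at least 1.5-fold higher in both replicate numbers, as were 3.86% of the genes tested, and none of the 4 was lower by as much, as were 3.63%. None of the 4 passed the adjusted test, and neither did any gene (0.0% of 11851 at an adjusted p under 0.05 in limma, with 524 at an unadjusted p under 0.05). Fcgr4 was higher with an unadjusted p under 0.05, as were 2.19% of the genes tested, and none of the 4 was lower with such a p, as were 2.24%. Only Fcgr4 thus stood in a class that few genes reached.

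**Figure D2:**
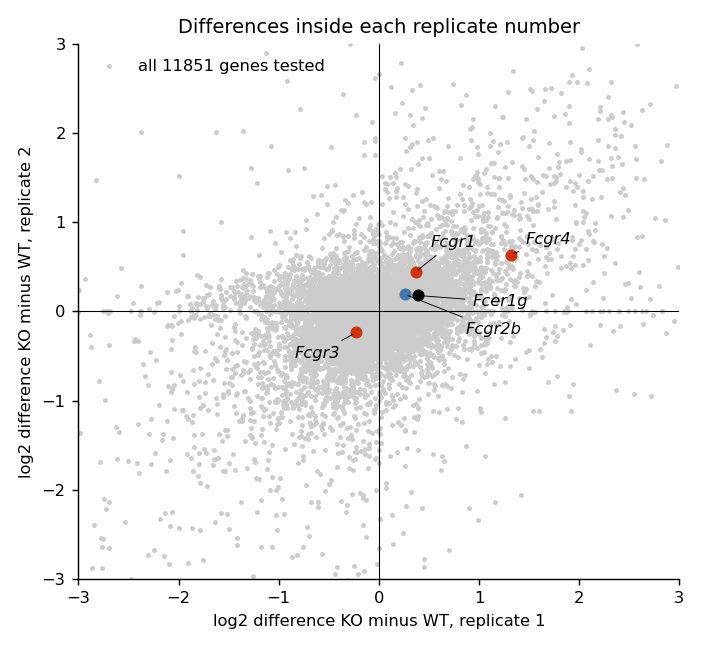
Log2 difference of RBP-J KO minus WT, on log2(FPKM + 1), inside replicate 1 (horizontal) and replicate 2 (vertical) for the 11851 genes tested (grey) with the receptors and Fcer1g marked; 103 genes lie beyond the axes, which end at 3. Fcgr4 lies apart from the bulk of genes at 1.32 and 0.64, and the other members lie within the cloud.

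In both genotypes the receptors kept the order Fcgr3, Fcgr2b, Fcgr1, Fcgr4 in replicate 1 and in replicate 2. In WT no neighbours in this order overlapped. In RBP-J KO, Fcgr1 (391 to 987 FPKM) and Fcgr4 (305 to 529 FPKM) overlapped across the replicate numbers. Inside each RBP-J KO library Fcgr1 lay above Fcgr4, at 987 against 529 FPKM and at 391 against 305 FPKM. Summed over the 4 genes, receptor RNA was at 5190 and 5142 FPKM in the WT libraries against 5553 and 5076 in RBP-J KO, so the groups overlapped. Its make-up differed more. Fcgr3 made up 56.9% and 62.4% of the sum in WT and 45.5% and 53.6% in RBP-J KO. Fcgr4 made up 4.07% and 3.81% in WT and 9.53% and 6.00% in RBP-J KO. Fcgr2b made up 24.3% and 28.2% in WT and 27.2% and 32.7% in RBP-J KO, so that its share was higher in RBP-J KO inside each replicate number while the groups overlapped.

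**Figure D3:**
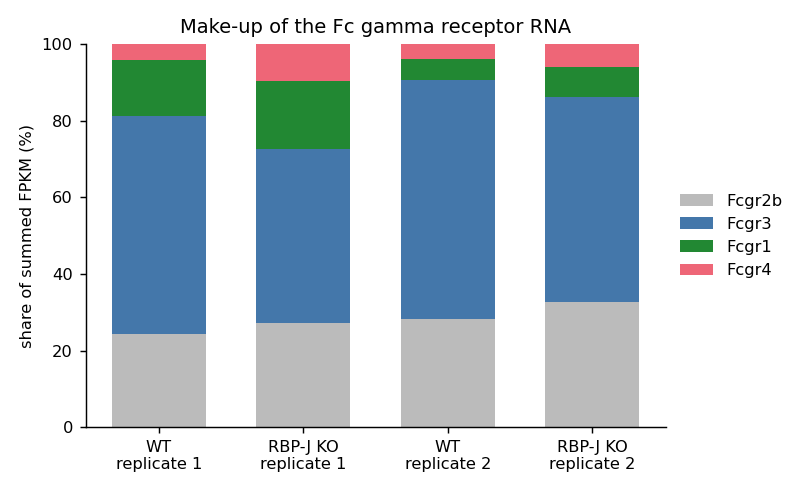
Share of the summed FPKM of the 4 Fc gamma receptor genes (percent, vertical axis from 0 to 100) held by each gene in each of the 4 libraries. The Fcgr3 part is smaller and the Fcgr4 and Fcgr2b parts are larger in RBP-J KO than in the WT library of the same replicate number.

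The ratio of activating to inhibitory RNA does not depend on the scaling of a library, because both values come from the same library. Fcgr1, Fcgr3 and Fcgr4 together stood to Fcgr2b at 3.11 and 2.54 in WT and at 2.68 and 2.06 in RBP-J KO. The ratio was lower in RBP-J KO inside both replicate numbers, at 0.86 and 0.81 of WT, but the groups overlapped (2.83 ± 0.40 and 2.37 ± 0.44, SD, n = 2). The exact two-sided permutation test gave p = 0.667, where 2 libraries against 2 cannot go below 0.333.

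The 3 activating receptors did not share this direction. Fcgr3 to Fcgr2b was at 2.34 and 2.21 in WT and at 1.67 and 1.64 in RBP-J KO. Here the libraries of a group nearly coincided and the groups did not overlap, with RBP-J KO at 0.72 and 0.74 of WT (exact permutation p = 0.333, the smallest possible with n = 2 per group). Fcgr4 to Fcgr2b was higher in RBP-J KO, at 0.35 and 0.18 beside 0.17 and 0.13 in WT, again without overlap (exact permutation p = 0.333). Fcgr1 to Fcgr2b was at 0.61 and 0.20 in WT and at 0.65 and 0.24 in RBP-J KO, higher inside both replicate numbers but with overlapping groups (exact permutation p = 0.667). The summed ratio follows Fcgr3, the most abundant of the 3: without Fcgr3 it was at 0.77 and 0.33 in WT and at 1.005 and 0.42 in RBP-J KO, in the opposite direction. Relative to Fcgr3, Fcgr4 was 2.92-fold higher in RBP-J KO in replicate 1 and 1.83-fold higher in replicate 2.

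**Figure D4:**
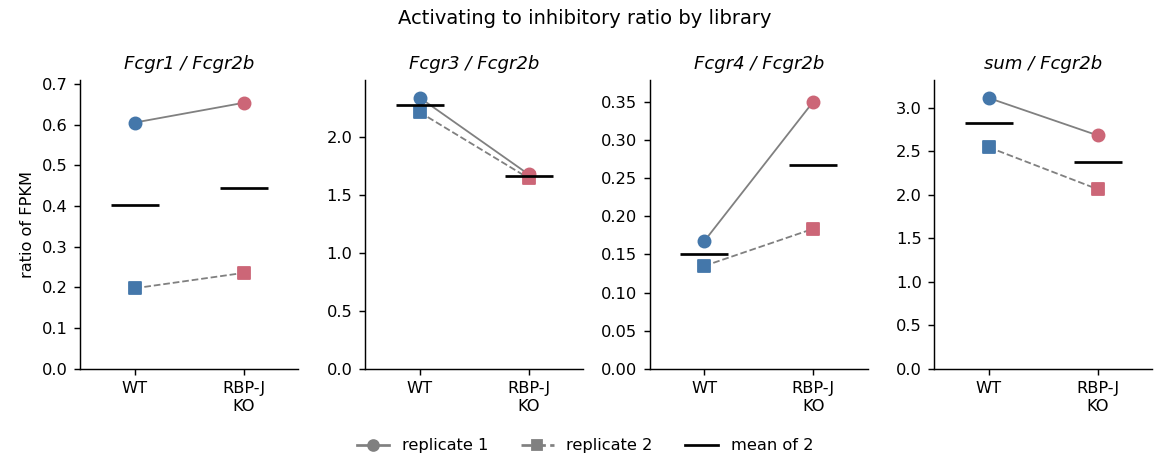
Ratio of FPKM of each activating receptor, and of their sum, to the inhibitory Fcgr2b in each library (vertical axes start at 0; lines join libraries of equal replicate number, black bars are means of 2). Fcgr3 to Fcgr2b separates the genotypes with little spread, Fcgr4 to Fcgr2b goes the opposite way, and the summed ratio overlaps between groups.

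Fcgr3 and Fcgr2b are close relatives, and short reads from the stretches they share cannot be assigned by sequence. In the GENCODE M21 transcripts, 166 of the 1298 stretches of 50 bases in the Fcgr3 transcript NM_010188 (12.8%) also occur in Fcgr2b. They make up 11.7% of the stretches of the Fcgr2b transcript NM_010187. The transcripts of Fcgr1 and Fcgr4 shared no such stretch with any other gene. Summed over Fcgr2b and Fcgr3, the level was at 4214 and 4659 FPKM in the WT libraries against 4036 and 4381 in RBP-J KO, or 0.96 and 0.94 of WT. How the quantification divided shared reads between the 2 genes is not stated in the labels, and its part in the Fcgr3 to Fcgr2b ratio was not tested.

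Fcgr2b had 2 transcript entries in the replicate 2 tables, and the other receptors had 1 each. They differ by exon 6 of the 8 exons of NM_001077189, a wholly coding exon of 141 bases that NM_010187 lacks. This exon lengthens the cytoplasmic tail, giving the B cell form of the receptor (b1), whereas the form without it (b2) is the usual one of macrophages and can be internalised. It is shown, from the GENCODE M21 transcript, because it tells the 2 forms apart.
Fcgr2b exon 6 of NM_001077189: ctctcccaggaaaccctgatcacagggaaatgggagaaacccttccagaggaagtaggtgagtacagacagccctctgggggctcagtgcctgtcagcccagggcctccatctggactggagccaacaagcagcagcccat
The entry without the exon was at 1355 FPKM in WT replicate 2 and 1540 FPKM in RBP-J KO replicate 2, and the entry with it at 96.3 and 119 FPKM. The form without the exon thus made up 93.4% of Fcgr2b in WT and 92.9% in RBP-J KO. With 1 library per genotype at transcript level there is no replicate check of this split. The annotated transcripts also differ in length, 3544 bases with the exon and 1462 without it, so that the split rests on more than this exon.

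The gamma chain gene Fcer1g, which the activating receptors need to reach the surface, was more abundant than any receptor. It was at 5894 and 6060 FPKM in the WT libraries against 7729 and 6858 in RBP-J KO, without overlap, as for 11.7% of all genes tested. The log2 difference was 0.28 (SE 0.22, limma adjusted p = 0.999). Relative to the summed activating receptors it stood at 1.501 and 1.64 in WT and at 1.91 and 2.01 in RBP-J KO, again without overlap (exact permutation p = 0.333, the smallest possible). Other receptors such as Clec4n use the same chain.

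The list of other Fc receptors held 15 symbols, of which Fcmr and Faim3 name the same gene. The tables had an entry for 14 genes and 8 were tested, 4 of them higher and 0 lower in both replicate numbers, where the shares of the genes tested are 25.1% and 34.1%. Fcer1g is among the 8. By at least 1.5-fold in both, 0 were higher and 0 lower, beside 3.86% and 3.63% of all genes tested. The median log2 difference was 0.35, beside -0.05 over all genes tested, but it was 0.64 in replicate 1 and 0.09 in replicate 2. Faim3 and Fcrla were listed at 0 in both replicate 2 libraries, so they enter the replicate 2 median as no difference. Fcgrt, the neonatal receptor FcRn that recycles IgG, was at 140 and 318 FPKM in the WT libraries against 257 and 423 in RBP-J KO. It was 1.84-fold and 1.33-fold higher inside the replicate numbers, with overlapping groups. Trim21, a cytosolic antibody receptor, was at 90.8 and 88.8 FPKM in the WT libraries against 140 and 103 in RBP-J KO. Fcrl1, a receptor-like gene of B cells, was at 20.2 and 24.7 FPKM in the WT libraries against 38.1 and 21.7 in RBP-J KO, with differences of opposite sign. Fcer2a, Fcamr, Fcrl6 and Pigr were listed at 0 in all libraries, and Fcer1a, the mast cell IgE receptor, was above 0 only in RBP-J KO replicate 1 (1.45 FPKM); these 5 were chosen after their values were seen.

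Genes of the signalling chain behind the activating receptors differed in both directions. Of 49 genes tested, 20 were higher and 15 lower in both replicate numbers, beside 25.1% and 34.1% of all genes tested, 2 and 1 of them by at least 1.5-fold (3.86% and 3.63% of all genes), and the median log2 difference was 0.06. Vav2, an exchange factor for small GTPases, was 2.42-fold and 2.39-fold higher, and the adaptor Lcp2 (SLP-76) 1.49-fold and 2.25-fold. The adaptor Lat2 was lower, at 750 and 1014 FPKM in the WT libraries against 392 and 533 in RBP-J KO. Syk itself, listed under its older symbol Sykb and picked once its values were known, was at 283 and 273 FPKM in the WT libraries against 412 and 296 in RBP-J KO.

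Among 16 phosphatases and other brakes, 10 were higher and 3 lower in both replicate numbers, beside 25.1% and 34.1% of all genes tested. By at least 1.5-fold in both, 0 were higher and 1 lower, beside 3.86% and 3.63% of all genes tested. The median log2 difference was 0.19. Cblb, a ubiquitin ligase that limits ITAM signals, was lower, at 59.3 and 45.8 FPKM in the WT libraries against 33.4 and 25.7 in RBP-J KO. Inppl1, the inositol phosphatase SHIP2, was at 374 and 292 FPKM in the WT libraries against 252 and 218 in RBP-J KO. Ptpn6, the tyrosine phosphatase SHP-1, was 1.60-fold and 1.29-fold higher in RBP-J KO, and the adaptor Dok3 1.60-fold and 1.15-fold. Inpp5d, which encodes the SHIP1 that Fcgr2b recruits, was picked once its values were known. It was at 565 and 387 FPKM in the WT libraries against 709 and 465 in RBP-J KO, with overlapping groups.

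Inhibitory receptors that, like Fcgr2b, carry an ITIM were more often higher than lower in RBP-J KO. Of 19 tested, 10 were higher and 3 lower in both replicate numbers, beside 25.1% and 34.1% of all genes tested. By at least 1.5-fold, 6 were higher and 0 lower, beside 3.86% and 3.63% of all genes tested, and the median log2 difference was 0.45. Pilra was at 75.9 and 50.9 FPKM in the WT libraries against 385 and 234 in RBP-J KO. Siglece, a receptor for sialic acids, was at 15.9 and 13.8 FPKM in the WT libraries against 160 and 53.4 in RBP-J KO, and Cd300a was 1.98-fold and 2.20-fold higher. Cd200r1, which restrains myeloid cells by another motif than the ITIM although it stood on this list, was lower, at 616 and 625 FPKM in the WT libraries against 345 and 478 in RBP-J KO. The log2 difference of Fcgr2b itself was 0.22, beside the list median of 0.45. Those of Pilra and Siglece were larger, but these genes were named for their small p.

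Activating receptors that signal through the gamma chain or DAP12 were split, with 7 of 18 higher and 7 lower in both replicate numbers, 5 and 3 of them by at least 1.5-fold, where the shares of all genes are again 25.1%, 34.1%, 3.86% and 3.63%. The median log2 difference was 0.08. Tyrobp, which encodes the adaptor DAP12 itself and is no receptor, stood on this list and is among the 7 higher. Pilrb1 was at 29.5 and 18.2 FPKM in the WT libraries against 151 and 114 in RBP-J KO. Clec4n, the gamma chain receptor Dectin-2, was 2.56-fold and 2.19-fold higher in RBP-J KO. Clec4d was lower, at 2815 and 2755 FPKM in the WT libraries against 1551 and 1334 in RBP-J KO, and so was Pira7, at 11.7 and 7.76 FPKM in the WT libraries against 2.38 and 2.78 in RBP-J KO. The Pira genes are near-identical copies, so a value for a single copy is uncertain.

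Regulators of Fc receptor genes were mostly higher, with 20 of 30 higher and 3 lower in both replicate numbers, beside 25.1% and 34.1% of all genes tested, and a median log2 difference of 0.31 (0.48 in replicate 1 and 0.08 in replicate 2). Irf1, an interferon-induced transcription factor, was at 136 and 144 FPKM in the WT libraries against 361 and 239 in RBP-J KO. Il10ra, the receptor chain for interleukin 10, was at 168 and 161 FPKM in the WT libraries against 418 and 262 in RBP-J KO. Smad3, a transducer of TGF-beta, was 1.84-fold and 2.34-fold higher. Socs3, a feedback inhibitor of cytokine receptors, was at 3.78 and 4.18 FPKM in the WT libraries against 15.8 and 6.28 in RBP-J KO. At these low levels it was 4.19-fold and 1.502-fold higher. Sfpi1, the symbol under which the tables list PU.1, picked once its values were known, was at 1242 and 1086 FPKM in the WT libraries against 1462 and 1167 in RBP-J KO.

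Phagocytosis and oxidase genes were divided, with 10 of 29 higher and 11 lower in both replicate numbers (25.1% and 34.1% of all genes) and a median log2 difference of -0.05. Cybb, the catalytic subunit of the phagocyte oxidase, was at 1235 and 1085 FPKM in the WT libraries against 2075 and 1647 in RBP-J KO. Marcks, a substrate of protein kinase C at the membrane, was 1.86-fold and 1.37-fold higher and Marcksl1 was at 0.70 and 0.85 of WT. Cd36, a scavenger receptor, was lower, at 5448 and 5231 FPKM in the WT libraries against 1571 and 3044 in RBP-J KO.

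Fcgr2b, Fcgr3, Fcgr4 and Fcer1g lie on chromosome 1 in the annotation of build GRCm38.p6, and Fcgr1 lies on chromosome 3. From the same stretch of chromosome 1, 22 genes were tested, and Fcer1g itself is 1 of them. Of the 22, 8 with Fcer1g among them were higher and 8 lower in both replicate numbers (25.1% and 34.1% of all genes). The median log2 difference was -0.0041. Pcp4l1 was at 62.0 and 113 FPKM in the WT libraries against 16.0 and 9.22 in RBP-J KO, and Hsd17b7, a sterol reductase, at 47.3 and 84.7 FPKM in the WT libraries against 30.3 and 31.3 in RBP-J KO. Atf6, a sensor of the unfolded protein response, was 1.27-fold and 1.91-fold higher, and Sh2d1b1, a SLAM adaptor, was at 2.58 and 0 FPKM in the WT libraries against 14.4 and 5.57 in RBP-J KO. No gene named from these lists passed the adjusted test, the smallest adjusted p in limma being 0.457 for Pilrb1.

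**Figure D5:**
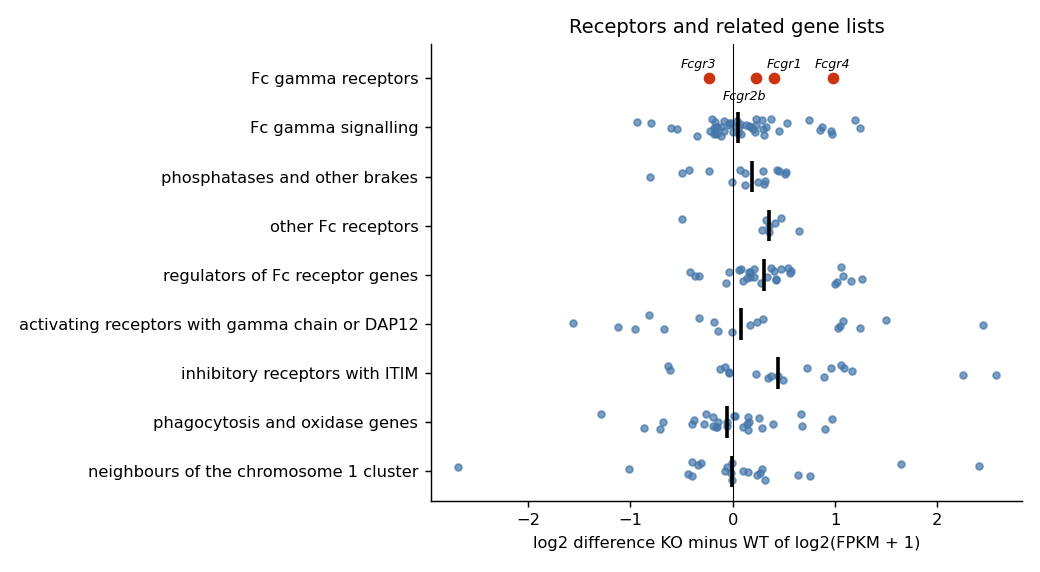
Log2 difference of RBP-J KO minus WT (limma, on log2(FPKM + 1)) for the 4 receptors (red) and for the tested genes of the 8 related lists (blue points, spread vertically for visibility), with the median of each list as a black bar. The 4 receptors span -0.23 to 0.98, and the inhibitory receptors with an ITIM have the highest median, 0.45.

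The genes with profiles most like each receptor were found by the root mean square distance between centred log2(FPKM + 1) profiles over the 4 libraries, among 8329 genes averaging 20 FPKM or more. For Fcgr4 they were Oas1b (distance 0.020), Il10ra (0.049) and Mndal (0.090). Oas1b belongs to the oligoadenylate synthases of the antiviral response and was at 19.6 and 18.4 FPKM in the WT libraries against 49.4 and 28.3 in RBP-J KO. Mndal, of the interferon-inducible Ifi200 family, was at 227 and 208 FPKM in the WT libraries against 487 and 321 in RBP-J KO. For Fcgr1 they were Pik3cb (0.032), a catalytic subunit of PI3 kinase, Rnf144b (0.043) and Rnf149 (0.065), which like Fcgr1 were higher in replicate 1 than in replicate 2 in both genotypes. Pik3cb was at 113 and 44.1 FPKM in the WT libraries against 145 and 57.9 in RBP-J KO. For Fcgr3 they were Tmem18 (0.013), Cgrrf1 (0.015) and Srpk2 (0.016), and for Fcgr2b Tmub1 (0.020), Fam193b (0.028) and Mlycd (0.029). These likenesses rest on 4 libraries and describe the profiles only.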

How the data were processed

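RNA was measured in 4 libraries made with an Illumina RNA sample preparation protocol, per the labels' protocols. Per the submitters' processing notes, TopHat and Cufflinks were used with build mm9; versions, annotation and options are not stated there. The authors' deposited values are taken as FPKM, the unit of Cufflinks; the headers name none. Transcript rows of the replicate 2 tables were summed per symbol, and 25 symbols turned into dates were restored. Depth is unknown and no count model was used.

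Tests used log2(FPKM + 1), which shrinks folds of low genes, on 11851 genes averaging 1 FPKM or more. The model was limma 3.58.1 (R 4.3.3) with only the group as a term and with a variance trend, and p-values were adjusted over all genes by Benjamini-Hochberg (two-sided, threshold 0.05). The procedure was also run on simulated data with independent noise in each library and no difference between replicate numbers. The real libraries do differ by replicate number, so that run cannot show how the test behaves on them. Ratios of receptors were compared by exact permutation over libraries. A replicate block, 3 other scalings, other pseudocounts and filters, the highest transcript in place of the sum, and leaving out each library were tried. The receptors always named were joined by up to 4 genes per list with the smallest p, and by 3 genes of most similar profile per receptor. Some genes that these rules name are not reported here. The members and lists were chosen with earlier results of these data known. The 8 lists hold 211 symbols, of which 5 were found under an older symbol through RefSeq. Figures used Python 3.11.15 and matplotlib 3.10.9.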

Additional observations from a re-analysis of the deposited data

How the results depend on the processing

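The direction of Fcgr2b, Fcgr3, Fcgr4 and Fcer1g was the same in all 14 alternatives, and none of the 4 receptors passed the adjusted threshold in any; the adjusted p of Fcgr4 was 0.192 or more. Leaving out 1 library in turn, the log2 difference lay between -0.30 and 1.11 for Fcgr1, 0.12 and 0.32 for Fcgr2b, -0.29 and -0.17 for Fcgr3, and 0.58 and 1.38 for Fcgr4. Fcgr1 turned to -0.26 without RBP-J KO replicate 1 and to -0.30 without WT replicate 2. Each of these fits leaves a group with 1 library, assumed to vary like the other, and replicate numbers unbalanced between the genotypes. The log2 difference of the summed activating to inhibitory ratio was -0.26, and it turned to 0.16 with the geometric mean of the 3 receptors and to 0.36 without Fcgr3, by the construction of the measure. Leaving out 1 library, it lay between -0.45 (without RBP-J KO replicate 1) and -0.07 (without RBP-J KO replicate 2), with -0.11 without WT replicate 1 and -0.40 without WT replicate 2. No gene passed the adjusted threshold in any alternative. The count at an unadjusted p under 0.05 was 524, and lay between 321 (without RBP-J KO replicate 1) and 783 (without RBP-J KO replicate 2) when a library was left out. With the replicate number as a block it was 1557. Equal numbers are not stated to pair the samples, although the gap between replicates 1 and 2 was correlated between WT and RBP-J KO across genes (r = 0.64). Under the block the adjusted p was 0.192 for Fcgr4, 0.322 for Fcgr1, 0.558 for Fcgr2b and 0.555 for Fcgr3. With 2 libraries a group over the same 2 numbers, the block cannot move a difference, only its error.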
